A study of Homo sapiens with 8 samples.

Results

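Pomalidomide (POM) was added to all-trans retinoic acid (ATRA) in OPM-2 myeloma cells, and the chromatin immunoprecipitation (ChIP) peaks listed with the combination were compared with those listed with ATRA alone. A peak counted as shared when it overlapped a peak of the other list by at least 1 bp on chromosomes 1 to 22 or X, and as a one-list peak when it did not. The ATRA list held 36742 peaks, of which 8561 had no counterpart with ATRA+POM. The ATRA+POM list held 47193 peaks, of which 20679 had no counterpart with ATRA. Among the strongest 25% of the ATRA+POM list, ranked by the authors' −log10 q, 2247 of 11798 peaks had no counterpart with ATRA. The one-list peaks of both directions numbered 29240, beside 189160 peaks in the 4 lists of the study.

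OPM-2 is an established line of human multiple myeloma cells with a t(4;14) translocation that places NSD2 and FGFR3 under immunoglobulin control. The study gave the cells the solvent DMSO, 1 µM ATRA, 1 µM POM or 1 µM of both compounds for 72 h. Each treatment was represented by 1 ChIP library and 1 input library of this single line. The sources used here do not give the antibody, and the series' title concerns RARβ and resistance to immunomodulatory drugs. With 1 library a side there was no replicate spread and no test was made, so that every difference below compares 2 libraries and not 2 conditions. Intervals are 95% Wilson intervals and cover counting error only. In a pool of cells, more signal per cell and more cells with the signal cannot be told apart.

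ATRA is the ligand of the retinoic acid receptors RARA, RARB and RARG, which bind DNA with an RXR partner at repeats of the sequence AGGTCA and recruit coactivators once the ligand is bound. The receptors switch on enzymes that clear the ligand, among them CYP26A1, CYP26B1 and DHRS3, and the receptor gene RARB itself. Pomalidomide binds cereblon (CRBN), the substrate receptor of a CUL4 ubiquitin ligase, and directs it to the lymphoid transcription factors IKZF1 and IKZF3. Their loss in myeloma cells is known to lower IRF4 and MYC and to raise interferon-response genes.

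The ATRA library was the shallowest of the series. The reads at each peak's summit, recovered from the deposited fold enrichment and p, had a median of 23 with ATRA and of 65 with ATRA+POM, and the lists started at 5 and 11 reads. The background of the lists put the ATRA library at 0.146 of the depth of ATRA+POM, which was therefore 6.83 times deeper, while DMSO and POM stood at 1.11 and 1.03 of it. The ATRA and ATRA+POM lists covered 23.4 and 30.8 Mb with median peak widths of 385 and 391 bp. A missing ATRA peak can therefore be a peak below the reach of that library. A missing ATRA+POM peak was missing from the deeper library, but from the list with the lowest median fold enrichment of the 4. That median was 7.99, against 10.6 with ATRA, 8.88 with DMSO and 9.49 with POM. The part of enrichment in the missing peaks was not tested. Of 9 plasma cell marker genes 7 had a peak within 1000 bp of a gene end with ATRA and 8 with ATRA+POM. None of 5 B cell, 5 myeloid and 4 erythroid markers did in either list. Of 5 T cell markers 1 did in each list (CD2), and of 4 NK cell markers 1 did with ATRA (NCAM1, which myeloma cells can carry) and none with ATRA+POM.

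The following promoter sequences are shown because their genes carry the gene-end results below. They were chosen after the values were seen, come from RefSeq (GRCh38.p14) and give the 250 bases before the annotated start, 5′ to 3′ on the strand of the gene. CD274, OAS1, RIGI and PARP9 had a peak there with ATRA+POM and none with ATRA. Capitals mark matches to the interferon response core (GAAA, any 2 bases, GAAA), to the ETS-IRF composite (GGAA, any 2 bases, GAAA) or to the retinoid receptor site AGGTCA, on either strand, and overlapping matches run together.
CD274, chr9:5450292-5450541, plus strand: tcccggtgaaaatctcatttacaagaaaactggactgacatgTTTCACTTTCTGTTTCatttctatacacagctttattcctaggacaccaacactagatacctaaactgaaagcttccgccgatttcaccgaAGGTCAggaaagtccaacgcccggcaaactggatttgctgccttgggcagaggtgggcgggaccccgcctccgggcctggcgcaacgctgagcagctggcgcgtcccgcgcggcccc
OAS1, chr12:112906712-112906961, plus strand: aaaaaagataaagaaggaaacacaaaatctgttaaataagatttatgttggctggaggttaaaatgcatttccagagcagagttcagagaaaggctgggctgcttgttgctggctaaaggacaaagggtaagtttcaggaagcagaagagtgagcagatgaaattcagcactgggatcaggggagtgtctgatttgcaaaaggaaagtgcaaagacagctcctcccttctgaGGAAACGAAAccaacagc
RIGI, chr9:32526197-32526446, minus strand: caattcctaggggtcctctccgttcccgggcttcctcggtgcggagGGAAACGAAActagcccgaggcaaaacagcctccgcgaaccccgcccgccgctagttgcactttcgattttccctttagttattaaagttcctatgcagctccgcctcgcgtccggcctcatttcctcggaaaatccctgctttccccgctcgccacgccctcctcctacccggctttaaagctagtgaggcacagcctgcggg
PARP9, chr3:122564301-122564550, minus strand: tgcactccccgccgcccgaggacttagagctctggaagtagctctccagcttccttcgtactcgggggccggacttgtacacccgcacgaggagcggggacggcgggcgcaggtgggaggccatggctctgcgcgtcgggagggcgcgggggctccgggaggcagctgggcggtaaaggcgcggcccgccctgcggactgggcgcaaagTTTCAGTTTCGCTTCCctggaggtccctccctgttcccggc
MCM10 and CUL4A had a peak there with ATRA and none with ATRA+POM, and no such letters in these 250 bases. The chosen genes do not stand for their classes. In the longer promoter windows counted below, the core was in 5.27% of those with a peak of ATRA+POM alone. It was in 2.38% of those with a peak of ATRA alone and in 3.57% of all windows. The composite was in 4.52%, 1.79% and 2.81% in the same order. Most windows of either class thus held neither the core nor the composite.
MCM10, chr10:13161308-13161557, plus strand: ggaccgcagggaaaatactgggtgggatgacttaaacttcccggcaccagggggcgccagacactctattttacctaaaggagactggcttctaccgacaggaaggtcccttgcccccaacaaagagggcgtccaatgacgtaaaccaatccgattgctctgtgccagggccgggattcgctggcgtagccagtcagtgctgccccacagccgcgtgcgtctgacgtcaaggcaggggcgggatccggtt
CUL4A, chr13:113207943-113208192, plus strand: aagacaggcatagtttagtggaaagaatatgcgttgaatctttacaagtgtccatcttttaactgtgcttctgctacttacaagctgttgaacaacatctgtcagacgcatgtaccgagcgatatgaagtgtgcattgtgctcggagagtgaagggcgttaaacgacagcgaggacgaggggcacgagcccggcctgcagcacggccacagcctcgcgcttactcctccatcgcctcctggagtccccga

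CD274 encodes PD-L1, the ligand of the T cell checkpoint receptor PD-1, and its ATRA+POM peak covered 95 of the 250 bases. That peak held both overlapping interferon response cores, which begin 208 and 202 bases before the start on the minus strand, and not the AGGTCA 117 bases before it. RIGI encodes the cytosolic RNA sensor RIG-I, and its peak covered 121 bases with the composite 204 bases before the start. OAS1 encodes an enzyme that makes the activator of RNase L, and its peak covered 133 bases but ended before the composite at 18 bases from the start. PARP9, which shares a divergent promoter with its partner DTX3L, had 206 bases covered, and its overlapping composite and core at 35 and 41 bases lay outside the peak. The ATRA peak of MCM10, a replication initiation factor, covered 37 bases, and that of CUL4A, the scaffold of the cereblon ligase, covered 29. A match is a run of letters and not a site shown to be bound.

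Without a counterpart in the combination were 23.3% of all ATRA peaks (22.9 to 23.7). These 8561 peaks were narrow and weak for their list. Their median width was 233 bp against 463 bp for shared ATRA peaks, and their median summit reads were 15 against 27. Their fold enrichment over the local background, the authors' own value, had a median of 7.61, and 2056 of them reached 10-fold. Reads at their summits ran from 5 to 503.

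In the other direction 43.8% of ATRA+POM peaks had no ATRA counterpart (43.4 to 44.3), with a median width of 283 bp and a median of 46 summit reads. Among the strong ATRA+POM peaks it was 19.0% (18.3 to 19.8), and among the strongest 25% of the ATRA list 4.44% (408 of 9186, 4.04 to 4.88). The 2247 strong peaks had a median width of 766 bp, a median fold enrichment of 18.8 and 90 to 2445 summit reads with a median of 209. The 9551 strong ATRA+POM peaks that were shared had a median width of 1118 bp and 256 reads. The edge of the strong set fell within the list at a −log10 q between 102.348 (a peak near DPP6 with 144 reads) just inside and 102.272 (a peak near IL17RE with 119 reads) just outside.

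The share without a counterpart went down with strength in both lists. In 8 equal groups of ATRA peaks from weakest to strongest it was 47.9, 39.4, 33.9, 25.8, 18.9, 11.7, 6.51 and 2.37%. In those of the ATRA+POM list it was 69.2, 62.8, 57.9, 48.7, 42.0, 31.8, 24.6 and 13.5%. The strongest eighth of the ATRA+POM list, with a median of 393 reads, thus had as large a missing share as ATRA peaks between the fifth and sixth groups, which had medians of 26 and 35 reads. The 2 shares were measured against partners of unequal depth.

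**Figure D1:**
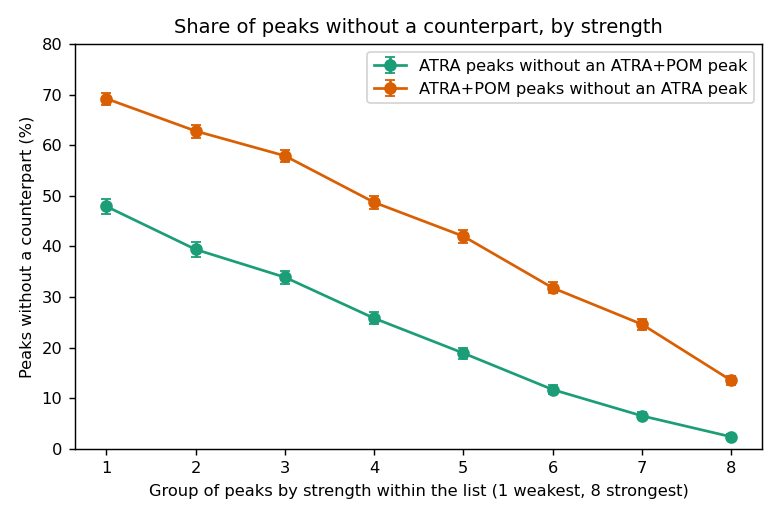
Share of peaks without a counterpart (%, vertical axis) in 8 equal groups by −log10 q within each list (horizontal axis, 1 weakest and 8 strongest), with 95% Wilson intervals as bars. ATRA peaks went from 47.9% to 2.37% and ATRA+POM peaks from 69.2% to 13.5%, and the ATRA+POM points lie above the ATRA points in every group.

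Shared peaks gave a scale for the missing ones, but it rests on peaks called in both lists and need not hold at peaks called in 1. At the 13884 shared pairs whose summits lay within 50 bp, the median was 32 reads with ATRA, or 218.6 at the depth of ATRA+POM, beside 106 reads with ATRA+POM. The ratio of ATRA+POM to depth-scaled ATRA reads had a median of 0.456 and ran from 0.226 at the tenth to 1.10 at the ninetieth percentile. Scaled by depth and by this ratio, 7894 of the 8561 one-list ATRA peaks (92.2%) would have stood at or above 25 reads, the tenth percentile of the ATRA+POM list. Of these, 2541 would have reached its median of 65. The 2247 strong ATRA+POM peaks, scaled to the ATRA depth alone, had from 13.2 to 358 reads with a median of 30.6. All 2247 were above the tenth percentile of the ATRA list (11 reads), and 1779 were at or above its median of 23.

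The one-list ATRA peaks were also peaks of untreated cells. DMSO listed 8459 of the 8561 (98.8%), and 3945 (46.1%) were listed with DMSO and not with POM. Only 89 (1.04%) were in neither. Shared ATRA peaks were mostly listed in all lists, and 27686 of 28181 (98.2%) were in both DMSO and POM. Of the 408 strong one-list ATRA peaks all had a DMSO peak, 206 had a POM peak as well, and the count of 0 outside DMSO allows a share of up to 0.933%. At these 408, DMSO had a median of 371 reads and a depth-scaled ratio to ATRA of 0.759 (the tenth to the ninetieth percentile, 0.594 to 1.02). At the 206 with a POM peak, POM had 81.5 reads and a ratio of 0.184 (0.0691 to 0.549). At strong shared ATRA peaks the same ratios were 0.872 for DMSO and 0.819 for POM.

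The strong one-list ATRA+POM peaks were mostly peaks of the POM list. POM listed 2152 of the 2247 (95.8%), less than the 99.9% of strong shared ones. DMSO listed 1116 (49.7%), against 9550 of the 9551 strong shared ones. Listed with POM and not with DMSO were 1049 (46.7%), against 1 of the strong shared ones. In neither list were 82 (3.65%), and with DMSO and not POM there were 13. Where POM had a peak, its median was 282.5 reads against 210 with ATRA+POM, a depth-scaled ratio of 1.25 (the tenth to the ninetieth percentile, 0.423 to 2.57). Where DMSO had a peak, its median was 59 reads against 212, a ratio of 0.240. At strong shared ATRA+POM peaks those ratios were 1.71 for POM and 1.48 for DMSO. Both ratios were lower at the one-list peaks than at shared ones, the DMSO ratio more so. Of all 20679 one-list ATRA+POM peaks, weak ones included, POM listed 16250 (78.6%) and neither list held 3520 (17.0%). Each treatment was a single library, so treatment and library cannot be told apart.

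**Figure D2:**
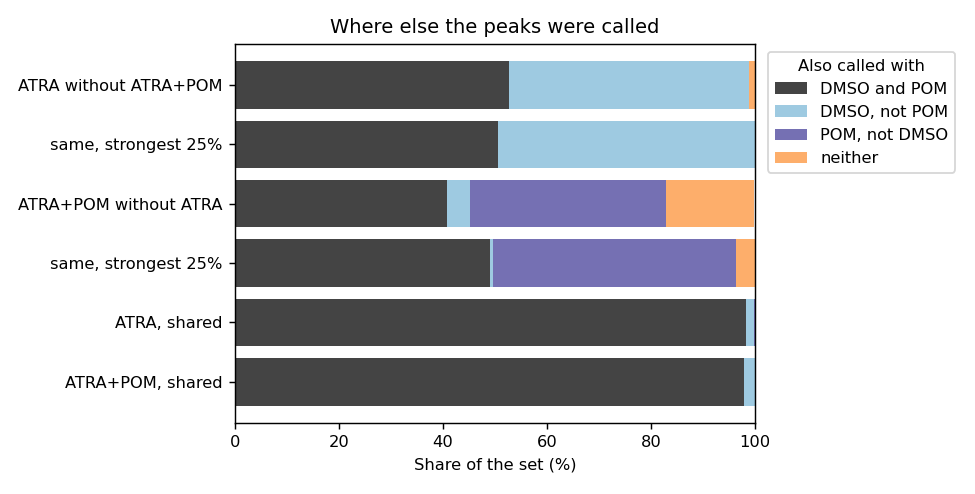
Share of each set of peaks (%, horizontal axis) that was also called with DMSO and POM, DMSO only, POM only or neither, for the peaks of 1 list, their strongest 25% and the shared peaks. The one-list ATRA sets are split between DMSO and POM together and DMSO alone (52.7% and 46.1%), and the strong one-list ATRA+POM peaks between DMSO and POM together and POM alone (49.1% and 46.7%).

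One-list peaks lay away from gene ends more often than shared ones. A gene end is taken here as the 1000 bp on either side of an annotated start or end of a protein-coding gene. It held the midpoint of 30.4% of all ATRA peaks, 33.5% of the shared ones and 20.3% of the one-list ones. Of the strong one-list ATRA peaks, 22 of 408 lay there (5.39%). Of the strong one-list ATRA+POM peaks it held 53 (2.36%, 1.81 to 3.07), against 25.2% of strong shared ones. The one-list strong peaks lay between genes in 58.6% and inside genes in 39.0% of cases, and their median distance to the nearest gene end was 62.6 kb against 13.1 kb for strong shared peaks. Among one-list ATRA peaks, those listed with DMSO and not POM lay at gene ends in 7.12% of cases (281), and those listed with both in 31.9% (1441). Peaks missing from both POM-containing lists were thus mostly distal.

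Across all ATRA peaks, chromosomes differed less than strength groups. The share of ATRA peaks without a counterpart ran from 18.3% on chromosome 22 to 27.0% on chromosome 4. For strong ATRA+POM peaks it ran from 7.14% on chromosome 19 (21 of 294) and 11.7% on chromosome 17, both rich in genes, to 23.1% on chromosome 15 (83 of 359). The depth behind the chromosomes was that of the 2 libraries throughout.

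The strongest ATRA peak without a counterpart lay at chr7:118310301-118313103, 69.0 kb from ANKRD7. It had 503 reads with ATRA, 2327 with DMSO and no peak with POM or ATRA+POM. Its ATRA reads correspond to 3436 at the depth of the combination. The second lay in VPS37A, a subunit gene of the ESCRT-I sorting complex, with 232 reads with ATRA, 1183 with DMSO and 59 with POM. The third and the fourth were near LMO3, a LIM-only cofactor (chr12:16635633-16637314, 26.3 kb away, 200 reads with ATRA, 1039 with DMSO, none listed with POM), and BAMBI, a decoy receptor of the TGF-beta family (chr10:28947930-28950397, 266 kb away, 193 reads with ATRA, 1165 with DMSO and 229 with POM). An intragenic one lay in GUCY2F, a retinal guanylate cyclase (chrX:109439591-109442061, 165 reads with ATRA, 951 with DMSO, none with POM). The peak in SOX5, a developmental transcription factor (chr12:24108651-24109538), had 182 reads with ATRA, 1232 with DMSO and 75 with POM. The others of the 10 strongest were nearest to RCC2, PRAG1, LMO4 and RNF144A. In reads not scaled for depth DMSO was the highest list at all 10. Scaled to the depth of ATRA+POM, the ATRA reads were above the unscaled DMSO reads at all 10, with DMSO at 1.11 of that depth. They were 3436 against 2327 near ANKRD7 and 881 against 669 near RNF144A. Of the 10, 5 had no POM peak (ANKRD7, LMO3, GUCY2F, RCC2 and RNF144A).

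The strongest ATRA+POM peak without an ATRA counterpart lay inside LRRC4C, a synaptic adhesion gene (chr11:40542675-40545374). It had 2445 reads with ATRA+POM against 2164 with POM and 118 with DMSO, and it would have 358 reads at the ATRA depth. The peak 217 kb from CITED2, a transcriptional coregulator (chr6:139590126-139592669), had 1709 reads with ATRA+POM against 1758 with POM and 53 with DMSO. The peak 5.91 kb from PIK3CG, a leukocyte phosphoinositide 3-kinase subunit (chr7:106857907-106860847), had the highest fold enrichment of the 10, at 149, with 1391 reads with ATRA+POM, 718 with POM and none listed with DMSO. The peak in AIG1 (chr6:143159369-143161909) had 1399 reads, 928 with POM and none listed with DMSO. The peak in BICC1, an RNA-binding protein gene (chr10:58757149-58758525), had 1066 reads with ATRA+POM against 1817 with POM and 326 with DMSO. The peak 107 kb from the transcription factor gene NFIB (chr9:13974126-13974987) had 1112 with ATRA+POM, 1559 with POM and none listed with DMSO. The others of the 10 were nearest to CD1D, TMEM65, SLC10A2 and HLX. Only the peak near CD1D, a lipid-presenting molecule (2243 reads), had neither a POM nor a DMSO peak, and the other 9 all had a POM peak.

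Some one-list peaks came in runs with no peak of the other list between them. The lack of peaks of that other list in a run therefore follows from the definition and is not a result. The 8561 ATRA peaks formed 5775 runs, of which 4010 were single peaks and 96 held at least 5. The longest by number spanned 42.5 kb at the potassium channel genes KCNA2 and KCNA3 (chr1:110631017-110673481) with 11 ATRA peaks, 7 DMSO peaks, 7 POM peaks and none with ATRA+POM. A run across GRIA1, a glutamate receptor subunit gene (chr5:153428862-153601961), had 8 ATRA and 9 DMSO peaks, 1 POM peak and none with ATRA+POM. A run of 7 lay in CD44, the hyaluronan receptor of myeloma adhesion (chr11:35144354-35167180). Its strongest place, about 26.4 kb into the gene, had 603 reads with DMSO and 104 with ATRA and no peak with POM. In the run POM listed peaks only at 5.61 and 6.62 kb, with up to 114 reads, and ATRA+POM listed none in the run. The other 2 runs of the 5 held 8 ATRA peaks each, between LUZP2 and ANO3 and near VRK1.

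The strong one-list ATRA+POM peaks formed 1593 runs, 1151 of them single and 20 of at least 5. The run with the most, 9 strong peaks, spanned 278 kb at RHOU and RNF187 (chr1:228527514-228805580). All peaks in that span numbered 14 with DMSO, 0 with ATRA, 12 with POM and 11 with ATRA+POM, and the highest reads were 82 with DMSO against 327 with POM and 541 with ATRA+POM. A run of 8 spanned KIT and reached towards KDR, which encode the stem cell factor receptor and a VEGF receptor (chr4:54565842-55077085, 511 kb). That span held 5 DMSO, 0 ATRA, 21 POM and 21 ATRA+POM peaks, and the highest reads were 144, none listed, 831 and 866. At PARVG and SHISAL1 (chr22:44191729-44353269) the counts were 2, 0, 10 and 11. Between ICE1 and MED10 (chr5:5792821-6136616) they were 6, 0, 14 and 15. The fifth run held 6 strong peaks at chr16:35560220-35630298. In each of these 5 spans ATRA had no peak by the definition of a run. POM and ATRA+POM had peaks in numbers close to each other except in the fifth (12 and 19), and DMSO had peaks as well.

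At gene bodies with 5000 bp on both sides, the loci with the most one-list ATRA peaks were RABGAP1L and PTPRG with 12 each. RABGAP1L held 31 peaks with DMSO, 30 with ATRA, 24 with POM and 22 with ATRA+POM, and PTPRG, a receptor tyrosine phosphatase gene, 24, 31, 33 and 22. ARMC2 followed with 10 (19, 16, 11 and 6 peaks), then NSMCE2 with 9 (29, 26, 20 and 23) and MSANTD3-TMEFF1 with 9 (20, 16, 14 and 6). For strong one-list ATRA+POM peaks the leading loci were the axon guidance receptor gene ROBO2 with 6 (15, 8, 25 and 31), the transporter gene ABCA13 with 6 (1, 2, 5 and 13), and LRRC4C, DAB1 and GPC6 with 5 each. ROBO2, LRRC4C, DAB1 and GPC6 had more POM than ATRA peaks in the same bodies. These are long genes, and peak numbers were not divided by length.

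Gene ends were compared gene by gene over 19974 protein-coding genes. A gene-end peak was listed for 7640 genes with ATRA and 7831 with ATRA+POM, and for 6976 with both. It was listed with ATRA alone for 664 genes (8.69% of 7640) and with ATRA+POM alone for 855 (10.9% of 7831). The order of these 2 counts turned to 1259 and 528 with equal numbers of peaks from each list, and to 895 and 856 with the stronger 50% of each. Leaving out genes whose peak overlapped a peak of the other list beyond the window left 547 (7.16%) and 761 (9.72%), and these are called ATRA-only and combination-only genes from here on. Gene-end reads given for a gene are those of the strongest gene-end peak of each list, which can lie at either end. Where the start was known, the first rule applied to starts gave 533 and 630.

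The 547 ATRA-only genes had a median of 13 ATRA reads. DMSO had a gene-end peak at 524 of them and POM at 459. No ATRA+POM peak lay anywhere in the locus of 275. Scaled by depth and by the shared-peak ratio, 482 reached the tenth percentile and 103 the median of the ATRA+POM list.

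The 761 combination-only genes had a median of 32 reads, or 4.68 at the ATRA depth, and 422 of them were then below the 5 reads at which the ATRA list started. A scaled value below 5 did not preclude an ATRA peak, since 867 genes with a gene-end peak in both lists were below it too. Scaled also by the shared-peak ratio, which rests on peaks present in both lists, 18 of the 761 were below 5 and 339 reached 11 reads. By depth alone, 99 genes were at or above the tenth percentile of the ATRA list and 28 at or above its median. Of the 99, POM had a gene-end peak at 90, DMSO had none at 34, and 29 had a POM and no DMSO peak.

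FZD2, a Wnt receptor, led the ATRA-only genes (chr17:44556473-44557128). Its gene end had 849 reads with DMSO, 124 with ATRA, 167 with POM and no peak with ATRA+POM, where depth and the shared-peak ratio give 387 reads. NTN5, a netrin family member, had 606, 79 and 171 and no peak with ATRA+POM. SRI, the calcium-binding protein sorcin, had 373 with DMSO and 64 with ATRA and no peak with either POM-containing treatment. CCDC169 had 312 and 59, likewise without a peak in either. RNF122, a ubiquitin ligase gene, had 455, 64 and 72. The one-list peaks of NTN5, SRI and CCDC169 lay at the 3′ end, and no strand was given for FZD2 and RNF122. DMSO was the highest list in each of these 5 genes before scaling for depth. At the depth of the combination, the ATRA reads correspond to 847 at FZD2, 540 at NTN5, 437 at SRI, 403 at CCDC169 and 437 at RNF122. The DMSO library stood at 1.11 of that depth, so the order before scaling does not rank DMSO against ATRA. The strongest one-list peaks at SHMT2, COX10, FAM111B and RALY lay beside another gene-end peak that ATRA+POM did list, and the peak at INHBE beside an overlapping one further out.

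CD274 led the combination-only genes, with a peak at chr9:5449740-5450386 just upstream of the start. It had 44 reads with DMSO, no peak with ATRA, 409 with POM and 688 with ATRA+POM, which is 101 at the ATRA depth. The same locus held peaks that ATRA did list, about 13 kb to the left and 43.6 kb to the right of the gene's left end. At the left place the highest reads were 331 with DMSO, 61 with ATRA, 410 with POM and 181 with ATRA+POM. At the right place they were 235, 21, 525 and 259. The peak at the CD274 promoter was the one place of the 3 without an ATRA peak.

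IKBKE, a kinase that activates IRF3 in innate sensing (chr1:206494948-206497031), had 824 reads with POM and 562 with ATRA+POM, or 82.3 at the ATRA depth, and no DMSO peak there. The listed peak lay at the 3′ end of IKBKE, and DMSO had its gene-end peak at IKBKE elsewhere, with 68 reads. OAS1 (chr12:112906405-112906844) had 59 with DMSO against 796 with POM and 409 with ATRA+POM. KDM3A, a histone H3K9 demethylase gene, had 327 with POM and 455 with ATRA+POM and no gene-end peak with DMSO, while its start in the promoter table held 2 peaks with ATRA and 2 with ATRA+POM. PPP1R14D, a protein phosphatase inhibitor gene, had 438 with POM and 337 with ATRA+POM at its 3′ end. HSD11B1, which regenerates active glucocorticoid, had 127, 388 and 328, and the kinase gene FAM20B had 96, 1070 and 354 at its peak. The start of FAM20B in the promoter table held 2 peaks with ATRA and 2 with ATRA+POM, as that of KDM3A did. POM was above ATRA+POM at IKBKE, OAS1, PPP1R14D, HSD11B1 and FAM20B and below it at CD274 and KDM3A.

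CYP26A1 and IL26 stood apart from these. At the 3′ part of CYP26A1 (chr10:93075518-93079063, midpoint 594 bp from the 3′ end) ATRA+POM had 396 reads, or 58.0 at the ATRA depth, while DMSO had 45, POM 52 and ATRA none listed. IL26, a cytokine gene, had 312 with ATRA+POM and 62 with POM at its 3′ end and no DMSO or ATRA peak. At both genes ATRA+POM alone was high. The nearest ATRA peaks to CYP26A1 were 40.7 kb to the left and 50.9 kb to the right of its left end. The fold enrichment at CYP26A1 was 44.3, and the peak there was 3.55 kb wide.

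**Figure D3:**
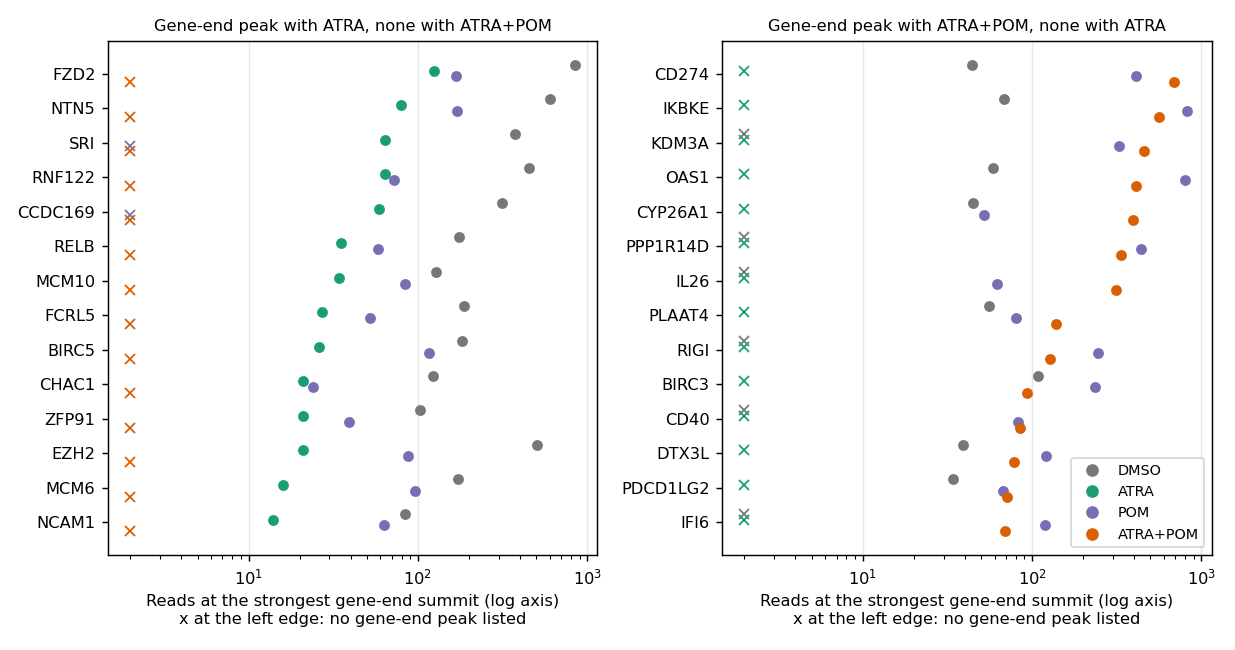
Reads at the strongest gene-end summit (horizontal log axis) in each of the 4 lists for 14 ATRA-only genes (left) and 14 combination-only genes (right), not scaled for depth. Crosses at the left edge stand for no listed gene-end peak. DMSO is the rightmost point at every ATRA-only gene shown, and POM or ATRA+POM at every combination-only gene shown. The ATRA library stood at 0.146 and the DMSO library at 1.11 of the depth of ATRA+POM, so the points do not rank DMSO against ATRA.

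**Figure D4:**
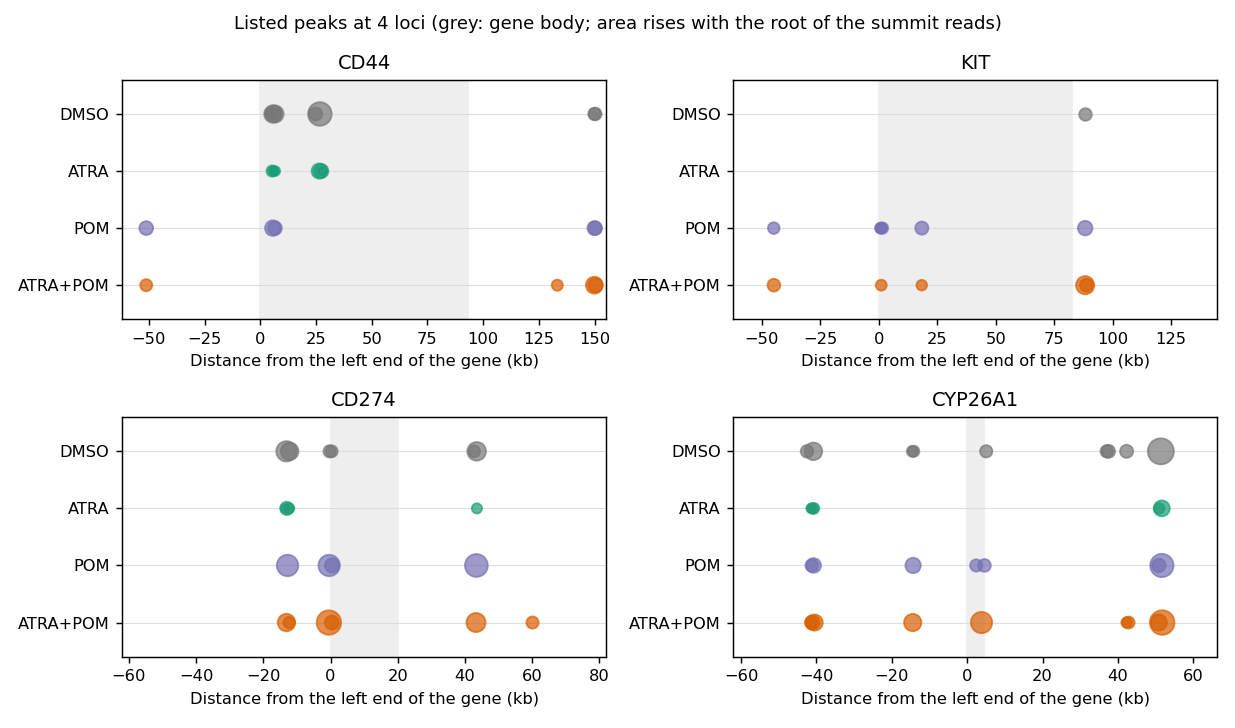
Listed peaks (dots, area rising with the root of the summit reads) in the 4 lists by distance from the left end of CD44, KIT, CD274 and CYP26A1 (kb), with the gene body in grey. CD44 has no ATRA+POM peak inside the gene. KIT, in a run defined by the lack of ATRA peaks, has no ATRA peak in its window. CD274 and CYP26A1 have ATRA peaks on both sides but none at the gene.

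Interferon-stimulated genes held the most combination-only members of the pathway lists. Of 47 genes 16 had a gene-end peak with ATRA and 22 with ATRA+POM, 7 of the 22 (31.8%) were combination-only and 1 gene, ISG20, was ATRA-only, beside 9.72% and 7.16% over all genes. All 7 had a POM peak, and 3 (RIGI, IFI6 and IFIT3) had no DMSO peak. RIGI had 244 reads with POM and 128 with ATRA+POM, or 18.7 at the ATRA depth. IFI6, a mitochondrial antiapoptotic protein, had 119 and 69 (10.1 at the ATRA depth). IFIT3, which helps recognise foreign RNA, had 98 and 30 (4.39), and DHX58, a helicase of the RIG-I family, had 97 with DMSO against 95 with POM and 47 with ATRA+POM (6.88). DTX3L and PARP9, a ubiquitin ligase and its partner that share 1 peak, had 39 with DMSO against 121 with POM and 78 with ATRA+POM (11.4). OAS1, RIGI, DTX3L and PARP9 were thus the 4 members at or above the tenth percentile of the ATRA list after scaling by depth alone. Over the whole loci, 17 of the 47 had more peaks with ATRA+POM than with ATRA and 2 had fewer, beside 25.1% and 17.9% of all genes (41.6% and 29.6% of the 12074 genes with a peak at the locus in either list). With windows of 3000 bp 7 members were combination-only and none was ATRA-only. POM exceeded ATRA+POM in reads at OAS1, RIGI, PARP9, DTX3L, IFI6, DHX58 and IFIT3.

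Surface ligands of T and NK cells gave small counts. Of 20 ligand genes none had a gene-end peak with ATRA and 3 did with ATRA+POM, all combination-only, beside 9.72% over all genes. CD274 was given above. PDCD1LG2, the second PD-1 ligand, had 34 reads with DMSO against 67 with POM and 71 with ATRA+POM (10.4 at the ATRA depth), and MICA, a ligand of the NK receptor NKG2D, had 63 with POM and 23 with ATRA+POM (3.37). In the antigen presentation list (25 genes), MICA and B2M, the light chain of MHC class I, were combination-only, 2 of the 6 genes with an ATRA+POM peak, and none was ATRA-only. B2M had 75 with DMSO against 77 with POM and 33 with ATRA+POM, or 4.83 at the ATRA depth. Only CD274 of the 20 ligands reached the tenth percentile of the ATRA list.

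Apoptosis and NF-kB lists also had combination-only members. Of 30 apoptosis genes 21 had a gene-end peak with ATRA+POM, 4 were combination-only and none ATRA-only, beside 9.72% and 7.16% over all genes. These were BIRC3, an inhibitor of apoptosis (109 reads with DMSO, 234 with POM, 93 with ATRA+POM), TNFSF10, the death ligand TRAIL (49 with POM and 45 with ATRA+POM, no DMSO peak), BCL2L11, the death effector BIM (91, 54 and 33), and BCL2L2. At the ATRA depth their ATRA+POM reads were 13.6, 6.59, 4.83 and 3.22, and only BIRC3 reached the tenth percentile of the ATRA list. Of 22 NF-kB genes, BIRC3 and CD40 were combination-only (13.3% of 15, near the share of all genes), and CD40, a costimulatory receptor of B lineage cells, had 83 with POM and 85 with ATRA+POM without a DMSO peak. RELB, a subunit of the noncanonical pathway, was ATRA-only, with 175 reads with DMSO, 35 with ATRA and 58 with POM. For RELB the depth and the shared-peak ratio give 109 reads with ATRA+POM, where none was listed.

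In the cell cycle list the one-list genes were all ATRA-only. Of 47 genes 36 had a gene-end peak with ATRA and 32 with ATRA+POM. ATRA-only were MCM10, MCM6, BIRC5 and E2F1, 4 of the 36 (11.1%, beside 7.16% over all genes), and none was combination-only. With so few genes this share is near that of all genes. BIRC5, the mitotic protein survivin, had 182 reads with DMSO, 26 with ATRA and 117 with POM. MCM10 had 127, 34 and 84, and MCM6, a subunit of the replicative helicase, had 172, 16 and 96. E2F1, a transcription factor of the G1 to S transition, had 49, 17 and 14. All 4 had a peak with both DMSO and POM, and depth with the shared-peak ratio give 81.1 reads for BIRC5, 106 for MCM10, 49.9 for MCM6 and 53.0 for E2F1 with ATRA+POM. Of the 47 loci, 22 had fewer and 15 had more peaks with ATRA+POM than with ATRA. Over all genes 17.9% had fewer and 25.1% more, or 29.6% and 41.6% of those with a locus peak in either list.

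Chromatin regulators and the stress response also had ATRA-only members. Of 33 chromatin genes, EZH2, KMT2C, HDAC3 and CREBBP were ATRA-only. EZH2, the H3K27 methyltransferase, had 503 reads with DMSO, 21 with ATRA and 87 with POM, while 10 ATRA+POM peaks lay elsewhere in its locus. With windows of 3000 bp only 1 chromatin gene remained ATRA-only. Of 27 unfolded protein response genes, CHAC1 and TRIB3, both targets of the stress factor ATF4, were ATRA-only and none was combination-only. CHAC1 had 123, 21 and 24 reads, and TRIB3 had 43 with DMSO, 8 with ATRA and no peak with POM. In the RAS and MAPK list (26 genes) only MAP2K2 was ATRA-only, at 6 ATRA reads, and none was combination-only.

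Loci of retinoid genes more often held more peaks with the combination than fewer, which was also so over all genes. Of 12 receptors and partners, 9 loci had more peaks with ATRA+POM than with ATRA and 1 had fewer. Over all genes it was 25.1% and 17.9%, or 41.6% and 29.6% of those with a locus peak in either list. The mean was 5.25 peaks per locus with ATRA and 8.17 with ATRA+POM, and 1.74 and 1.97 over all genes. RARB held 18 peaks with DMSO, 13 with ATRA, 23 with POM and 22 with ATRA+POM, and its highest reads were 291, 41, 1175 and 765, the last being 112 at the ATRA depth. RARA held 13, 8, 10 and 15 peaks and RARG 7, 4, 10 and 13. The loci of RARA, RARB and RARG held no strong one-list ATRA+POM peak. At gene ends RARG (34 reads with DMSO, 43 with POM, 31 with ATRA+POM) and RXRA (24, 28 and 23) were combination-only with fewer than 5 reads at the ATRA depth, and the coactivator gene NCOA2 was ATRA-only. The POM library had more peaks than the ATRA library at RARA, RARB and RARG as well.

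In the retinoid metabolism list (18 genes) CYP26A1 was combination-only and none was ATRA-only. Of its loci 6 had more peaks with ATRA+POM and 2 fewer, beside 25.1% and 17.9% over all genes. For CYP26B1 only the combination listed peaks, 2 in number. DHRS3, a retinaldehyde reductase, had 4 with POM and 5 with ATRA+POM and none with DMSO or ATRA. With windows of 3000 bp 5 members were combination-only. Among 16 classic retinoid targets PLAAT4, a retinoid-induced phospholipase, was combination-only with 56 reads with DMSO against 80 with POM and 139 with ATRA+POM (20.4 at the ATRA depth). Of the loci of these 16 targets, 7 had more peaks with ATRA+POM and 1 fewer, beside the same shares over all genes. PLAAT4 and CYP26A1 were the retinoid genes whose depth-scaled reads reached the tenth percentile of the ATRA list.

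The cereblon pathway list had no combination-only gene end. Of 17 genes, CUL4A (72 reads with DMSO, 11 with ATRA, 50 with POM) and ZFP91, a zinc finger substrate of the ligase (103, 21 and 39), were ATRA-only, and with windows of 3000 bp no member was. CRBN had 2 peaks at its locus with DMSO, 0 with ATRA, 2 with POM and 2 with ATRA+POM. IKZF1 had 3, 2, 4 and 3 and IKZF3 had 14, 12, 15 and 16. Of 25 plasma cell transcription factors BATF, EBF1 and IRF4 were combination-only, all below the tenth percentile of the ATRA list after scaling. IRF4 had 31 gene-end reads with DMSO and 20 with ATRA+POM (2.93 at the ATRA depth), and 8, 5, 4 and 4 peaks at its locus. MYC had 6, 5, 3 and 4 locus peaks.

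Of 19 myeloma surface genes, FCRL5, a B lineage receptor and immunotherapy target (188 reads with DMSO, 27 with ATRA, 52 with POM), and NCAM1 (84, 14 and 63) were ATRA-only, and CD40 was combination-only. CD38, the target of daratumumab, had a gene-end peak in every list, with 314, 16, 76 and 526 reads. The ATRA+POM value was the highest of the 4, and the ATRA value corresponds to 109 at its depth. These values depend on the window, since over the whole CD38 locus the highest reads were 314, 36, 416 and 526. POM was then much closer to ATRA+POM than at the gene end. TNFRSF17, which encodes BCMA, had 2, 3, 2 and 2 locus peaks, SDC1, the plasma cell syndecan CD138, 6, 7, 6 and 7. NSD2 had 10, 15, 11 and 12 peaks, and FGFR3 4, 2, 4 and 3.

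**Figure D5:**
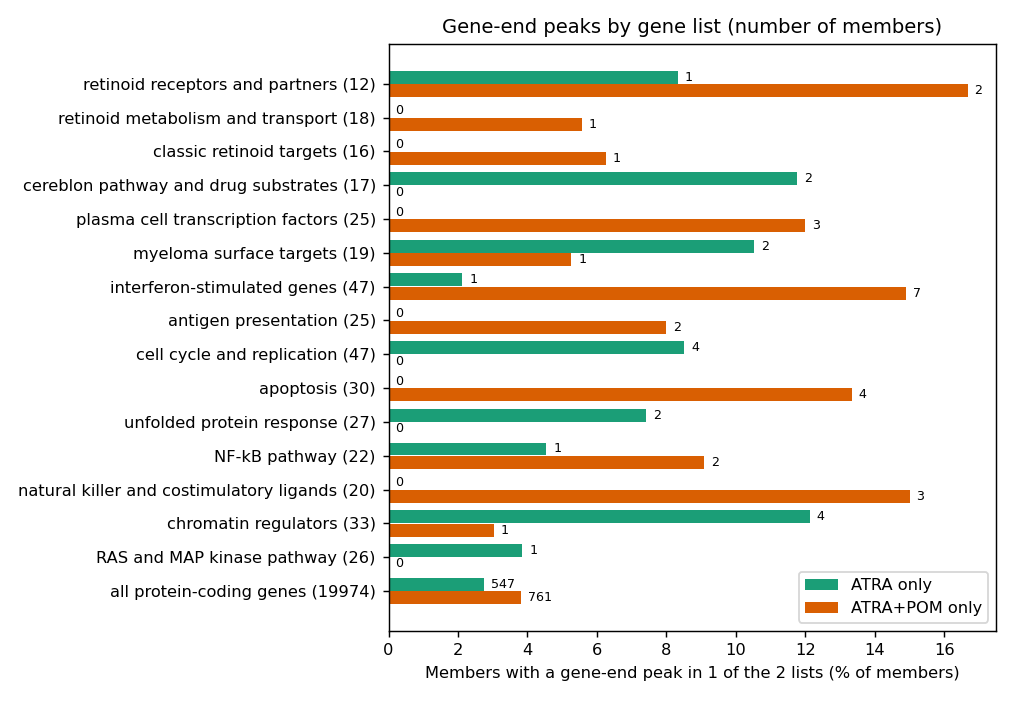
Members of each gene list with a gene-end peak in only 1 of the ATRA and ATRA+POM lists (horizontal axis, % of the list's members, with the number of such genes at each bar). Interferon-stimulated genes have 7 combination-only members of 47 and 1 ATRA-only member, and cell cycle genes have 4 ATRA-only members of 47 and no combination-only member.

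Promoter letters were counted in RefSeq windows from 250 bases before to 50 bases after the start, 34789 windows in all, on both strands. A peak of ATRA alone touched 671 windows and one of ATRA+POM alone 797. The interferon response core was in 5.27% of the combination-only windows (42, 3.92 to 7.05), 2.38% of the ATRA-only ones (16), 2.96% of those with both peaks and 3.57% of all. The ETS-IRF composite, which can share bases with the core, was in 4.52% (36), 1.79% (12), 3.02% and 2.81%. The retinoid receptor site AGGTCA was in 11.3%, 8.49%, 10.1% and 13.8%. Its direct repeat with 5 bases between was in only 2 of all 34789 windows and in no one-list window. It was too rare for the classes to be compared. The Ikaros-type letters TGGGAA were in 24.2% of combination-only and 20.6% of ATRA-only windows. The classes also differed in base composition, with a GC content of 62.7% in combination-only, 68.0% in ATRA-only and 62.7% in doubly covered windows, and 58.7% in all. The GC box GGGCGG was in 54.2%, 76.5%, 64.4% and 44.9%. The part of base composition in these shares was not tested.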

How the data were processed

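The files used were 4 deposited peak lists, 1 for each ChIP library of OPM-2 cells, called separately. Per the submitters' processing notes the build was hg38. For the aligner, peak caller and antibody the sources used here give no name. Each deposited peak has a score, a fold enrichment (a ratio of summit to local background), a −log10 p and a −log10 q, all computed by the authors. The authors did not state depth. It was inferred: assuming a Poisson caller that adds a count of 1, fold and p give the reads and background at each summit, and these reads were whole within 0.02. The lowest background value occurring at least 20 times, over the smallest peak width, gave relative depth.

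Peaks on chromosomes 1 to 22 and X counted as shared from 1 bp of overlap. Genes and promoters came from RefSeq tables of GRCh38.p14 and no genome was used. Since strand was known only for part of the genes, both gene ends were used. Peaks at a locus were counted over the gene body with 5000 bp on both sides. Named genes follow a rule: 16 genes always, the 10 strongest one-list peaks of each direction anywhere and at gene ends, the 5 loci with the most, and up to 4 members per gene list. Exceptions are named as such, or belong to a count. The members and lists were chosen with earlier results of these data known. The alternatives tried were 50% overlap, the stronger 50% of both lists, equal numbers (36742) of peaks, a gap of 500 bp, windows of 3000 bp, 10-fold enrichment and depth-scaled strength. The overlap and read steps were tested on simulated data. The work used Python 3.11.15 with pandas 2.3.3, numpy 2.4.6, matplotlib 3.10.9 and scipy 1.17.1.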

Additional observations from a re-analysis of the deposited data

How the results depend on the processing

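No paired analysis was possible because each treatment had 1 library, and for the same reason no replicate could be left out. Of 26 alternative values for the main counts 14 stayed within 1.5 times and 12 did not. One-list ATRA peaks numbered 4527 (24.6%) in the stronger 50% of each list, 2056 (10.4%) at 10-fold or more, and 2541 (12.5%) among peaks whose depth- and ratio-scaled reads reach the ATRA+POM median. One-list ATRA+POM peaks numbered 10166 (43.1%) in the stronger 50%, 13666 (37.2%) with equal numbers of peaks, and 1886 (18.9%) among those at or above the ATRA median after scaling. Strong one-list ATRA+POM peaks numbered 1267 (21.5%) in the stronger 50%, 3561 (30.2%) when 50% overlap was required, 4418 when strong meant 10-fold, and 6088 (28.1%) when it meant reads scaled by depth and by the shared-peak ratio. With equal numbers of peaks, 1259 genes (16.5%) had a gene-end peak with ATRA alone and 528 (7.64%) with ATRA+POM alone, which turned the order of the 2 counts, and the stronger 50% turned it as well (895 and 856). Which list had more one-list genes therefore depended on how many peaks entered. The alternatives that use the shared-peak ratio, and the stricter gene rule with 547 and 761 genes, were chosen after seeing the data. Of 42 gene-list counts at 3000 bp, 34 stayed within 1.5 times. The read levels rest on an inferred depth.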
